A study of Mus musculus with 16 samples.

Results

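The genes described are those of the kisspeptin, neurokinin B and dynorphin system of the hypothalamus, Kiss1, Tac2, Pdyn and Tacr3, together with Nov, the older symbol of Ccn3. They were taken by symbol and are 5 of 28683 genes listed over 16 libraries. Nov was picked by its measured level in neurons, which was higher in Esr1 cKO than in wild-type (WT) mice, so its genotype differences in neurons are given as a description with no test. Single cells of the hypothalamus and preoptic area were profiled by Drop-seq, which tags each captured transcript with a barcode of its cell and with a molecular identifier (UMI), with 1 library per female mouse. The mice were on a CD-1;129P2 mixed background, were 8 to 10 weeks old at the start, and received 28 daily subcutaneous injections of tamoxifen at 0.1 mg/kg or of corn oil with ethanol. There were 3 WT oil mice (libraries 1, 5 and 10), 5 WT tamoxifen mice (3, 8, 9, 13 and 16), 4 Esr1 cKO oil mice (4, 7, 12 and 14) and 4 Esr1 cKO tamoxifen mice (2, 6, 11 and 15). The Esr1 cKO mice carried floxed Esr1, the gene of estrogen receptor alpha, and a transgenic Nkx2-1-Cre, so that Esr1 was deleted only in cells of the Nkx2-1 lineage, mainly of the medial basal hypothalamus, and the WT mice were littermates without Cre.

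Kisspeptin, the product of Kiss1, acts on neurons that release gonadotropin-releasing hormone. In the arcuate nucleus the same neurons also make neurokinin B, a tachykinin encoded by Tac2, and dynorphin, an opioid peptide encoded by Pdyn. Neurokinin B acts through its receptor, encoded by Tacr3, and dynorphin through the kappa opioid receptor. These neurons are known for estrogen receptor alpha, for the pulses of gonadotropin release and for a part in the hot flashes that follow a loss of estrogen. Tac2 and Pdyn are also made by hypothalamic neurons without Kiss1. Nov encodes a secreted matricellular protein of the CCN family.

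In the genome build of the files (mm10, GRCm38) Kiss1 lies on chromosome 1 at 133321887 to 133329722, Pdyn on chromosome 2 at 129686549 to 129699938, Tacr3 on chromosome 3 at 134829007 to 134934581, Tac2 on chromosome 10 at 127724478 to 127731768 and Nov on chromosome 15 at 54745910 to 54753762. Because Tac2, Kiss1 and Pdyn were found together in a neuronal cluster, their promoter windows, from 250 bases before to 50 bases after a RefSeq start (GRCm38.p6), are shown 5′ to 3′ on the gene's own strand. Capitals mark TGACC and GGTCA, reverse complements of each other, which form the arms of the estrogen response element, GGTCA and then TGACC with 3 bases of any kind between them. They were searched on both strands, and overlaps were allowed.
Tac2, chr10:127724228-127724527, plus strand: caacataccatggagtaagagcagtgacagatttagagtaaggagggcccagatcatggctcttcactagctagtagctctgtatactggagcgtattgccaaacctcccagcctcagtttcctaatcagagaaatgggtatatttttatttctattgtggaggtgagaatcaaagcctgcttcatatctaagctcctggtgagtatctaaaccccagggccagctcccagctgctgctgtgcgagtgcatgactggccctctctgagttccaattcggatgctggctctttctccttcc
Kiss1, chr1:133326962-133327261, plus strand: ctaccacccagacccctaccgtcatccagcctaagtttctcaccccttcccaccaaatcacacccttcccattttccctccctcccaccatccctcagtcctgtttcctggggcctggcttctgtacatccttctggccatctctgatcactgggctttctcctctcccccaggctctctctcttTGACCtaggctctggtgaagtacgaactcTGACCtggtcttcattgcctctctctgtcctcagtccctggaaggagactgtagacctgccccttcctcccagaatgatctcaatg
Pdyn, chr2:129699889-129700188, minus strand: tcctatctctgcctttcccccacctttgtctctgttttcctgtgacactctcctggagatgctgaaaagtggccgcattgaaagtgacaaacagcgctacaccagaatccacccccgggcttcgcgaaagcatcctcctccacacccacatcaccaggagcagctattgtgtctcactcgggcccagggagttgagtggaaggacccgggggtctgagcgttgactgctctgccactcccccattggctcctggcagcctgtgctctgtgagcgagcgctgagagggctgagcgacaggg
The Kiss1 window held 2 matches to the arm and the Tac2 and Pdyn windows 0, as did the second Pdyn window and that of Tacr3, which are not printed. The Kiss1 window begins at 133326962, inside the gene span given above, which starts at 133321887. It thus surrounds a start within the gene, whereas the printed Tac2 and Pdyn windows cover the outer start of theirs. The full element was in none of these windows. Of all 32851 promoter windows of this length, 40.5% held an arm and 0.0700% the full element. A match is a description of the letters in this window, and nothing about binding was measured.

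The libraries held 2634253 to 8038158 UMIs, and 1746 to 5568 cells per library passed the filters, 55675 in all. Neurons made up 9148 of them, from 243 in library 6 to 904 in library 3, with 421014 to 2166653 UMIs per library. A barcode found in more than 1 library was carried by 1717 of the kept cells. Libraries 10 (WT oil) and 11 (Esr1 cKO tamoxifen) stood apart, in that each of their listed barcodes had at least 100 genes against at least 20 elsewhere, and values without both are given where they matter. The mice were processed over several days, and the labels do not give which mice shared a day. In neurons, Esr1 stood at 44.1 to 86.5 CPM (UMIs of the gene per 1000000 UMIs) in WT oil, 57.3 to 74.4 in WT tamoxifen, 41.4 to 58.9 in Esr1 cKO oil and 17.1 to 73.9 in Esr1 cKO tamoxifen libraries, and the groups overlapped. The lowest value was that of library 11, and Esr1 cKO tamoxifen libraries 2, 6 and 15 stood at 49.6, 71.3 and 73.9 CPM. Drop-seq counts tags near the 3′ end of a transcript, where these lie relative to the floxed part of Esr1 was not examined, and the Cre reaches only some neurons, so these counts were not used as a check of the deletion.

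Tac2, Kiss1 and most Pdyn transcripts were found in neurons, whereas Tacr3 and Nov were spread over other cell types. Besides neurons, the named cell types were ependymal cells, fibroblasts, mural and endothelial cells, microglia, astrocytes, oligodendrocytes and their precursors, the polydendrocytes, and 196 cells were left unnamed. Of 10011 Tac2 UMIs in kept cells, 98% lay in neurons, which held 31.3% of all UMIs. The pooled Tac2 level was 527 CPM in neurons (74.4 to 1625 over the 16 libraries) and 4.12 to 6.19 CPM in the other named types. A Tac2 UMI was found in 477 of 9148 neurons (5.21%, median 1489 UMIs per cell) and in 0.265% of astrocytes (median 482 UMIs), which should lack it. With cells thinned to 500 UMIs and shallower cells left out, the shares were 3.66% of 7328 neurons and 0.236% of 6359 astrocytes. Kiss1 was rare, with 45 UMIs in all, of which 44 lay in 35 neurons and 1 in a mural cell. No Kiss1 UMI was found in 13566 astrocytes, which allows up to 0.0221% of astrocytes to have one and, at their median of 482 UMIs, does not limit how many express the gene. Kiss1 was not listed for libraries 6 and 9.

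Neurons held 83.8% of 1694 Pdyn UMIs, at 76.2 CPM pooled (41.4 to 122 by library). The second level was that of ependymal cells, at 38.0 CPM (0 to 72.5 by library, 192 UMIs in 14 of 16 libraries), against 1.37 to 3.54 CPM in the remaining named types. A Pdyn UMI was found in 5.03% of ependymal cells (median 1116 UMIs) and 0.125% of astrocytes, and in 1.88% and 0.126% after thinning to 500 UMIs. It was also found in 122 of 1645 ependymal cells (7.42%, exact Clopper-Pearson 95% interval 6.20% to 8.79%, median 1256 UMIs) with a UMI of Tmem212, Ccdc153 or Foxj1, genes of motile cilia, and of neither Rax nor Col23a1, which mark tanycytes. Among 685 cells with Rax or Col23a1 and none of the ciliary genes, 2 had a Pdyn UMI (0.292%, interval 0.0354% to 1.05%, median 1089 UMIs). These intervals and limits cover counting error only and pool the cells of all mice. This split by marker genes was made after values had been seen.

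Tacr3 UMIs were found in all named cell types. Neurons held 40.4% of its 1407 UMIs, at 30.6 CPM pooled, and fibroblasts stood at 33.6 CPM, the remaining named types at 15.1 to 22.8 CPM. After thinning, a Tacr3 UMI was found in 1.36% of neurons, 1.40% of fibroblasts, 1.24% of ependymal cells and 0.912% of astrocytes, shares too alike to be told from background. Libraries 10 and 11 stood apart here too, with Tacr3 at 2.49 and 0.305 CPM over all cells but neurons against 10.3 and 15.7 CPM in their neurons, while the other 14 libraries gave 11.7 to 41.6 CPM outside neurons and 23.6 to 45.7 CPM in them. Nov was highest in fibroblasts, at 1010 CPM pooled (24.3 to 1862 by library). It stood at 37.9 CPM in neurons, 23.9 in endothelial cells and 13.7 in mural cells, and at 1.27 to 2.28 CPM in the remaining named types. A Nov UMI was found in 18.4% of 969 fibroblasts (median 761 UMIs), 2.11% of neurons and 0.133% of astrocytes, and in 14.7%, 0.791% and 0.0472% after thinning. The order of the cell types for Nov therefore did not turn on depth in these comparisons.

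**Figure D1:**
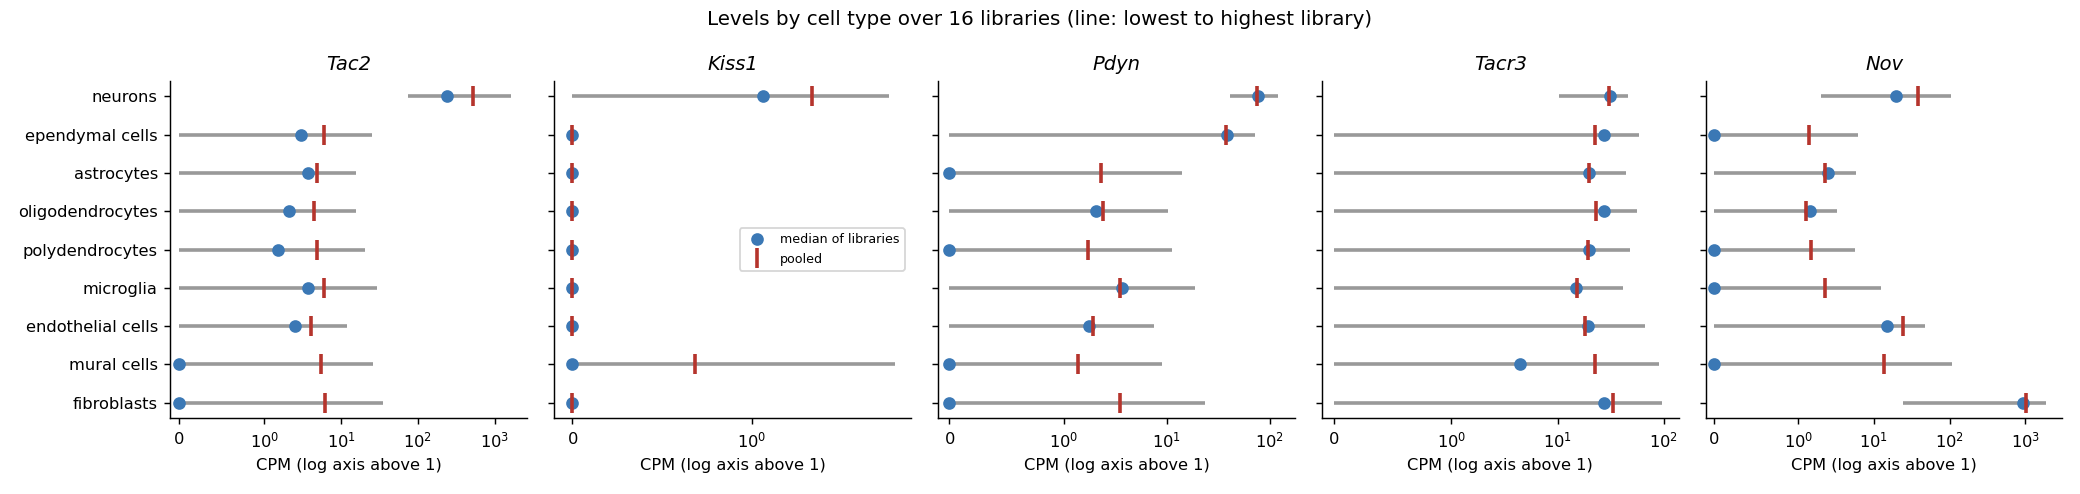
Level of each gene by cell type in CPM, on an axis that is logarithmic above 1. Points are medians over libraries, bars pooled values and lines the range over libraries. Tac2 stands highest in neurons, as does Kiss1, with 1 UMI in a mural cell, Pdyn stands highest in neurons and ependymal cells, Tacr3 pooled values lie close together, and Nov in fibroblasts.

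Among the neurons, 23 clusters were found, each called by its leading gene, and a cluster led by Tac2 gave the highest pooled level of Tac2, Kiss1, Pdyn and Nov. It held 106 neurons from all 16 libraries, 8, 26, 28 and 44 in the WT oil, WT tamoxifen, Esr1 cKO oil and Esr1 cKO tamoxifen groups, at a median of 4259 UMIs. Its leading genes were Tac2, Nov, Pdyn, Pcsk1, a prohormone convertase, and Tbx3, a transcription factor of the arcuate nucleus. Since these genes made the cluster, its levels are a description. Tac2 stood at 17546 CPM there and was found in 97.2% of its neurons, and these held 81.1% of all neuronal Tac2 UMIs. Kiss1 stood at 77.2 CPM, in 25.5% of the neurons, with 35 of its 44 neuronal UMIs. Pdyn stood at 1078 CPM in 85.8% of them, but with only 34.5% of neuronal Pdyn UMIs. Nov stood at 1147 CPM in 60.4% of them, with 73.7% of neuronal Nov UMIs, and Tacr3 at 152 CPM in 39.6%, with 12.1% of the UMIs. Of the WT libraries, only library 3 held Nov in this cluster, at 1 UMI. An Esr1 UMI was found in 64.2% of the cluster's neurons. With neurons thinned to 1000 UMIs, which left 99, the shares were 97.0% for Tac2, 6.06% for Kiss1, 54.5% for Pdyn, 14.1% for Tacr3 and 47.5% for Nov.

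Each gene had further sites among the neurons. Pdyn stood at 582 CPM in a cluster of 286 neurons led by Ppp1r17 (49.7% of its neurons, 24.0% of neuronal Pdyn UMIs) and at 237 CPM in 143 neurons led by Oxt and Avp, the oxytocin and vasopressin genes (49.0%). In neither was a Kiss1 UMI found. Across the 4 groups in the order above, pooled Pdyn was 559, 580, 640 and 545 CPM in the Ppp1r17-led cluster and 307, 267, 181 and 238 CPM in the Oxt-led one. Tac2 stood at 180 CPM in 605 neurons led by Gal, the galanin gene, where 10.9% had a Tac2 UMI, and at 503 CPM in 173 neurons led by Apoe, a gene of astrocytes. The 194 Tac2 UMIs of the Apoe-led cluster lay in 5.78% of its neurons, and only 1 of these had 10 or more. The Gal-led and Apoe-led clusters held 6 and 3 Kiss1 UMIs, and the other 20 clusters held 0. The highest Tacr3 level was 510 CPM in 60 neurons led by Slc6a3, the dopamine transporter gene, on 16 UMIs at a median of 385.5 UMIs per neuron. Outside the Tac2-led cluster, Nov reached 57.4 CPM in 38 neurons led by Hdc, the gene of histamine synthesis.

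A further cluster with Tac2 came from few mice, and the brain region of its neurons was not determined. The cluster led by Gm5741, with 3110047P20Rik, Gng8, Gpr151 and Scube1, counted 109 neurons, of which 69 came from library 16 (WT tamoxifen), 38 from library 11 (Esr1 cKO tamoxifen) and 1 each from libraries 5 and 12. Tac2 stood at 2308 CPM in it, with a UMI in 75.2% of its neurons, and Kiss1, Pdyn and Nov at 0 UMIs. It gave 412 of the 461 neuronal Tac2 UMIs of library 16 (89.4%) and 273 of the 2675 of library 11 (10.2%). Tac2 summed over all neurons thus had a different source in library 16 from that in the other WT libraries.

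**Figure D2:**
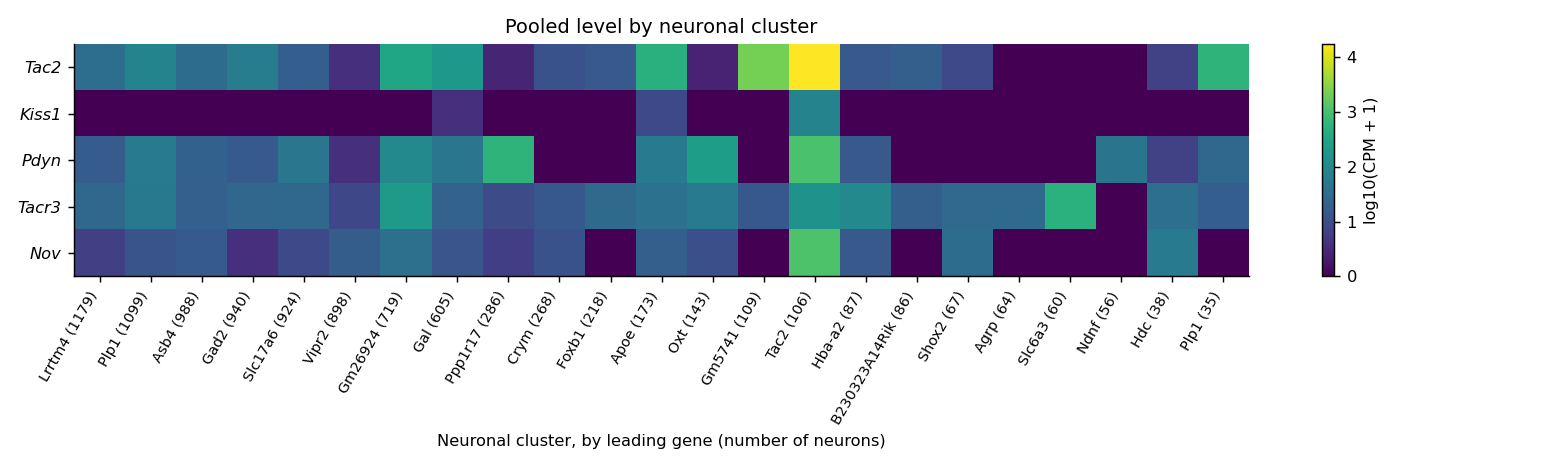
Pooled level of each gene in the 23 neuronal clusters, as log10 of CPM plus 1, with the number of neurons in brackets. Brighter colours are higher levels. Tac2, Kiss1, Pdyn and Nov are brightest in the Tac2-led cluster, the Gm5741-led one is bright for Tac2 but not for Kiss1, Pdyn or Nov, and the Ppp1r17-led and Oxt-led ones are bright for Pdyn with little Tac2.

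**Figure D3:**
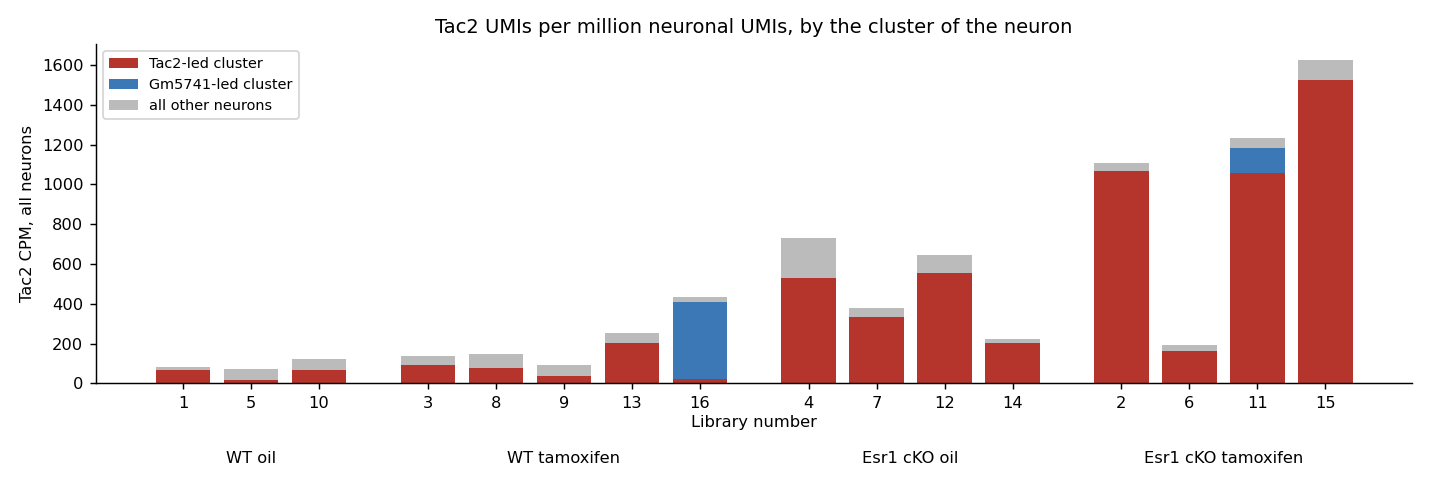
Tac2 level over all neurons of each library in CPM, split into the share from the Tac2-led cluster, the Gm5741-led cluster and other neurons. The Gm5741-led part fills most of the bar of library 16 and a small part of library 11, and the Tac2-led part most of the Esr1 cKO bars.

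The genes met in the same cells. Of the 35 neurons with a Kiss1 UMI, 28 had a Tac2 UMI (80%), 29 Pdyn (82.9%), 25 Nov (71.4%), 24 Esr1 (68.6%) and 13 Tacr3 (37.1%). These 35 neurons were deeper, at a median of 5128 UMIs against 1486 in neurons without Kiss1, of which 4.93% had Tac2, 6.23% Pdyn and 1.84% Nov. Of the 477 neurons with Tac2, 21.8% had Pdyn, against 5.69% of those without Tac2, and 14.3% had Nov, against 1.44%, at medians of 2781 and 1438 UMIs. All 4 of Tac2, Kiss1, Pdyn and Tacr3 were found in 13 neurons, and Tac2, Kiss1 and Pdyn without Tacr3 in 15. Kiss1 without the other 3 was found in 6. All these shares pool both genotypes. Neurons with at least 2 Tac2 UMIs held 1 and 0 Nov UMIs in WT oil and WT tamoxifen mice. They held 172 in Esr1 cKO oil and 347 in Esr1 cKO tamoxifen mice. Nov was thus found with Tac2 almost only in Esr1 cKO mice, for whose level it was picked.

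Over the 23 clusters, the gene most like Kiss1 among 10555 genes with at least 200 neuronal UMIs was Nov (Pearson's r = 0.84 on log2 of CPM plus 10), followed by Drosha (0.78) and Nr5a2 (0.76), and the value for Tac2 was 0.70. Tac2 was most like Esr1 (0.68) and Prlr, the prolactin receptor gene (0.62). Pdyn was most like Creld2 (0.74) and Nucb2 (0.66), Nov most like S100a10 (0.73) and Golim4 (0.69), and Tacr3 most like Ctsd (0.90) and Ppt1 (0.87). These are descriptions over 23 points that differ in depth and share libraries. They pool both genotypes. Kiss1 itself had only 44 neuronal UMIs, fewer than was asked of the other genes, and 35 of them lay in the Tac2-led cluster. Outside that cluster only the Gal-led and Apoe-led ones held any, so the likenesses of Kiss1 rest mainly on the Tac2-led cluster. The Nov level of the Tac2-led cluster came almost wholly from Esr1 cKO mice, for whose level Nov was picked, so its likeness to Kiss1 is no independent result.

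The genotype and treatment comparisons ask how loss of Esr1 in the Nkx2-1 lineage and tamoxifen act on these transcripts. UMIs were summed over the neurons of each library and compared in a single edgeR quasi-likelihood fit of 12448 genes, adjusted over all of them. In such sums, more cells of a type and more RNA per cell cannot be told apart. Of the 5 genes, 4 passed the filter on low counts and Kiss1 did not. Among the 3 genes open to a test, none passed the threshold in any contrast. Over all genes the share called was 0% for tamoxifen against oil in WT mice, 0% in Esr1 cKO mice, 0% for the interaction and 0% for Esr1 cKO against WT under oil. It was 0.00803% under tamoxifen, where the called gene was Nov. As Nov was picked for its higher level in Esr1 cKO neurons, this call is no test of it. At an unadjusted p under 0.05 there were 416, 382, 635, 580 and 444 genes, and DESeq2 called 1, 0, 0, 1 and 3.

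Tac2 levels in neurons stood apart between genotypes under oil, but did not pass the adjustment over all genes. In WT oil libraries 1, 5 and 10 it stood at 84.9, 74.4 and 124 CPM (94.5 ± 26.2, SD, n = 3). In Esr1 cKO oil libraries 4, 7, 12 and 14 it stood at 732, 381, 647 and 226 CPM (496 ± 234, n = 4). Each Esr1 cKO oil library lay above each WT oil library. Of all genes, 5.36% had groups that did not overlap in this contrast, in either direction. The log2 fold change was 2.42 (SE 0.64, 95% interval 1.03 to 3.81, adjusted p = 0.9999, edgeR), and Tac2 ranked 15 of 12448 genes by p.

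Under tamoxifen, Tac2 stood at 137, 146, 91.3, 256 and 434 CPM in WT libraries 3, 8, 9, 13 and 16 (213 ± 137, n = 5). In Esr1 cKO libraries 2, 6, 11 and 15 it stood at 1108, 192, 1235 and 1625 CPM (1040 ± 606, n = 4). The groups overlapped, because library 6 lay below WT libraries 13 and 16. The log2 fold change was 2.32 (SE 0.51, interval 1.20 to 3.45, adjusted p = 0.404, edgeR), with a rank of 9. It was 2.35 with an adjusted p of 0.0194 in the edgeR fit without a filter on low counts, and 2.93 with an adjusted p of 0.103 without the Gm5741-led neurons, which lowered library 16 from 434 to 56.1 CPM.

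For tamoxifen against oil, Tac2 gave a log2 fold change of 1.17 in WT mice (SE 0.60, interval −0.13 to 2.47) and 1.07 in Esr1 cKO mice (SE 0.53, interval −0.09 to 2.23), and the groups overlapped in both, where 3.09% and 2.39% of all genes had groups that did not. The interaction was −0.10 (SE 0.78, interval −1.79 to 1.60). The WT value rested in part on library 16. It was 0.72 without that library and 0.53 (SE 0.56) without the Gm5741-led neurons, a change of sources added after seeing the data. Without these neurons the interaction turned to 0.51 (SE 0.74).

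Kiss1 counts were too low for the fit. There were 0, 1 and 1 UMIs in the WT oil libraries 1, 5 and 10, and 4, 2, 0, 1 and 1 in WT tamoxifen libraries 3, 8, 9, 13 and 16. Esr1 cKO oil libraries 4, 7, 12 and 14 held 5, 1, 2 and 4, and Esr1 cKO tamoxifen libraries 2, 6, 11 and 15 held 9, 0, 8 and 5. Mean levels were 0.627, 1.26, 2.42 and 4.07 CPM in the 4 groups, and the genotypes overlapped under tamoxifen. Under oil they overlapped in UMIs but not in CPM. The highest WT library, 10, stood at 1.03 CPM on 1 UMI and the lowest Esr1 cKO library, 12, at 1.09 CPM on 2 UMIs. Of the 12448 tested genes, which leave out Kiss1, 5.36% did not overlap under oil. With no filter, the log2 fold change for Esr1 cKO against WT was 1.66 under oil (SE 1.05, adjusted p = 0.959, edgeR) and 1.75 under tamoxifen (SE 0.70, adjusted p = 0.894, edgeR).

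Pdyn stood at 49.0, 43.6 and 90.2 CPM in the WT oil libraries (60.9 ± 25.5) and at 58.5, 56.7, 50.1, 76.1 and 64.0 CPM in the WT tamoxifen libraries (61.1 ± 9.77), in the library order above. Esr1 cKO oil libraries gave 76.6, 82.8, 82.0 and 41.4 CPM (70.7 ± 19.7) and Esr1 cKO tamoxifen libraries 89.7, 83.1, 122 and 119 CPM (103 ± 19.9). The Esr1 cKO tamoxifen libraries lay above all libraries of WT tamoxifen and of Esr1 cKO oil. In these contrasts 1.73% and 2.39% of all genes had groups that did not overlap, in either direction. The log2 fold change was 0.81 (SE 0.24, interval 0.29 to 1.33, adjusted p = 0.9996, edgeR) against WT tamoxifen and 0.56 (SE 0.25, interval 0.02 to 1.11) against Esr1 cKO oil. It was 0.23 (SE 0.28) for Esr1 cKO against WT under oil and −0.02 (SE 0.27) for tamoxifen in WT mice, where the groups overlapped, and the interaction was 0.58 (SE 0.37). Without libraries 10 and 11, tamoxifen in WT mice gave 0.44 (SE 0.25) and the interaction 0.00 (SE 0.36).

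Tacr3 levels overlapped between all groups. It stood at 45.7, 29.1 and 10.3 CPM in WT oil, 24.6, 33.1, 30.4, 38.5 and 32.0 in WT tamoxifen, 23.6, 28.8, 44.0 and 33.3 in Esr1 cKO oil, and 44.9, 26.1, 15.7 and 36.4 in Esr1 cKO tamoxifen libraries. The lowest values were those of libraries 10 and 11. The log2 fold change for Esr1 cKO against WT was 0.32 under oil (interval −0.50 to 1.14) and −0.03 under tamoxifen (interval −0.74 to 0.67), and for tamoxifen 0.22 in WT (interval −0.57 to 1.02) and −0.13 in Esr1 cKO mice (interval −0.86 to 0.61).

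Nov, chosen for this pattern, stood at 3.27, 10.3 and 10.3 CPM in WT oil and 1.99, 7.56, 7.16, 10.4 and 2.82 CPM in WT tamoxifen neurons. Esr1 cKO oil libraries gave 56.2, 45.1, 45.1 and 43.0 CPM and Esr1 cKO tamoxifen libraries 83.4, 28.5, 103 and 70.6 CPM. The lowest Esr1 cKO library, 6, lay above the highest WT library, 13. Within treatment, 5.36% of all genes under oil and 1.73% under tamoxifen had genotypes that did not overlap, in either direction. The fitted log2 difference was 2.50 under oil and 3.69 under tamoxifen. The summed CPM of 8 fibroblast markers in neurons was 13.3 to 24.5 in WT oil, 16.9 to 115 in WT tamoxifen, 20.3 to 28.8 in Esr1 cKO oil and 21.4 to 37.8 in Esr1 cKO tamoxifen libraries. The medians were 13.7 in WT and 24.7 in Esr1 cKO mice under oil, and 42.9 and 29.6 under tamoxifen. The part of these markers in the Nov values was not tested.

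**Figure D4:**
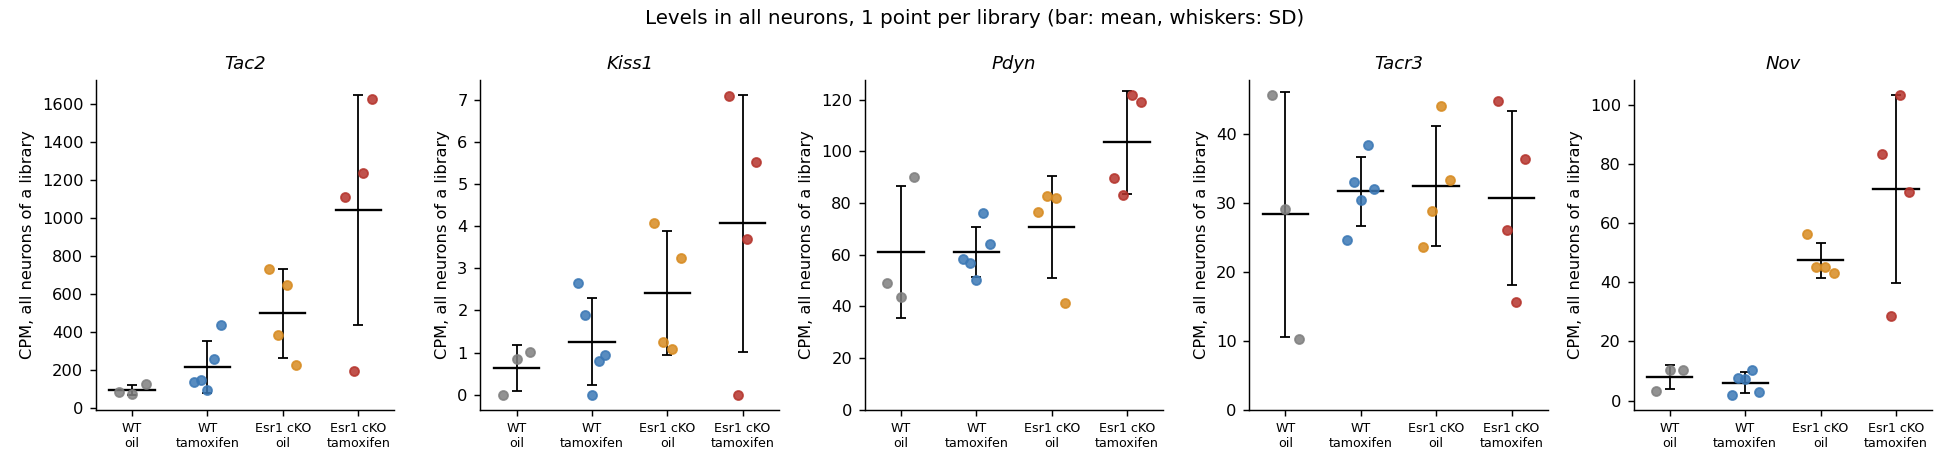
Level of each gene in the summed neurons of each library in CPM, by group. Points are libraries, bars group means and whiskers the SD. The Esr1 cKO libraries lie above the WT ones without overlap for Nov. They also do so under oil for Tac2 and, barely, Kiss1, and under tamoxifen for Pdyn. Of the 12448 tested genes, which leave out Kiss1, 5.36% under oil and 1.73% under tamoxifen had genotypes that did not overlap. Tacr3 overlaps in all groups.

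Leaving out the Tac2-led neurons lowered the genotype differences of Tac2 and Nov and turned that of Pdyn under oil. Of neuronal Tac2 UMIs, the Tac2-led cluster gave 50% in WT oil, 44.1% in WT tamoxifen, 81.7% in Esr1 cKO oil and 90.4% in Esr1 cKO tamoxifen mice. When neurons were clustered again without the 5 genes, a cluster led by Tac2 was found again, with 102 neurons, of which 99 were among the 106 above. With its neurons left out of the sums, the log2 fold change of Tac2 for Esr1 cKO against WT was 0.97 under oil (SE 0.89) and −0.10 under tamoxifen (SE 0.73), and that of Pdyn −0.38 (SE 0.28) and −0.02 (SE 0.25). These sums kept the Gm5741-led neurons, which gave most Tac2 UMIs of WT library 16. That library then stood at 414 Tac2 CPM, against 48.7, 68.7, 52.3 and 52.8 CPM in WT tamoxifen libraries 3, 8, 9 and 13. The Esr1 cKO tamoxifen libraries gave 28.9 to 186 CPM. Nov then stood at 1.35 to 10.7 CPM in WT and 6.0 to 25.1 CPM in Esr1 cKO libraries, which overlapped, at log2 differences of 0.77 and 1.13. This step was added after seeing the data. The neurons left out held most Tac2 and Nov UMIs of Esr1 cKO mice, so smaller differences of these genes were built into it. It describes where the UMIs lay and is no test. Only 1 of 59 Nov UMIs in WT neurons lay in the Tac2-led cluster (1.69%), against 519 of 647 in Esr1 cKO neurons (80.2%).

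Within the cluster formed without the 5 genes, the Tac2 level was higher in Esr1 cKO than in WT mice. This cluster was picked because Tac2 led it, and its tests were added after seeing the data. The p-values for Tac2 below are therefore not independent of that choice. The 31 WT neurons had a median of 21 Tac2 UMIs each and the 71 Esr1 cKO neurons 85, at median depths of 3319 and 4898 UMIs. WT oil libraries 1, 5 and 10 gave 4256, 7640 and 5509 Tac2 CPM on 2, 1 and 2 neurons, and WT tamoxifen libraries 3, 8, 9, 13 and 16 gave 4884, 7447, 5175, 7056 and 5791 CPM on 9, 4, 2, 10 and 1. Esr1 cKO oil libraries 4, 7, 12 and 14 gave 19314, 14050, 23022 and 10788 CPM on 9, 4, 9 and 5 neurons, and Esr1 cKO tamoxifen libraries 2, 6, 11 and 15 gave 26542, 13150, 25417 and 17786 CPM on 11, 1, 16 and 16. Each of the 8 Esr1 cKO libraries lay above each of the 8 WT libraries, of which 1, 5, 9, 10 and 16 rest on 1 or 2 neurons. The share of all genes that separate so in these neurons was not computed. The mean difference within treatment was 12823 CPM (exact permutation test over the 4410 splits within treatment, two-sided, p = 0.000227, the smallest it can give, adjusted p = 0.00227 over 10 tests). It was 11784 to 14085 CPM with each library left out in turn, with adjusted permutation p up to 0.00816, and 11967 CPM without libraries 10 and 11 (adjusted permutation p = 0.0119).

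In the same neurons, Pdyn stood at 304, 849 and 178 CPM in WT oil and 838, 269, 588, 498 and 504 CPM in WT tamoxifen libraries. Esr1 cKO oil libraries gave 1431, 1415, 1168 and 348 CPM and Esr1 cKO tamoxifen libraries 1351, 572, 1700 and 928 CPM. The genotypes overlapped, with libraries 14 and 6 within the WT range. The difference was 623 CPM (exact permutation p = 0.0113, adjusted 0.0378). Kiss1 was found in 2 of 31 WT neurons (6.45%) and 25 of 71 Esr1 cKO neurons (35.2%), at medians of 3319 and 4898 UMIs. These shares pool mice and depend on depth. The Kiss1 difference was 76.7 CPM (exact permutation p = 0.00658, adjusted 0.0329). The adjusted values of Pdyn and Kiss1 are taken over 10 tests that include that of Tac2. The Tac2 test is not independent of the choice of cluster, and its small p lowers both values. Both calls were sensitive to single libraries. The adjusted permutation p of Pdyn rose to 0.0544 to 0.104, at 529 to 629 CPM, without library 1, 2, 4, 7, 8, 9, 10, 11, 12, 13 or 16. That of Kiss1 rose to 0.0544 to 0.0926, at 61.2 to 77.6 CPM, without library 1, 2, 5, 8, 9, 10, 11, 13 or 16. Without both libraries 10 and 11 they were 0.210 and 0.137.

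Tacr3 and Esr1 in these neurons did not pass the test between genotypes. The Tacr3 difference was −59.9 CPM (exact permutation p = 0.419) and that of Esr1 −126 CPM (p = 0.229), with an Esr1 UMI in 71.0% of WT and 62.0% of Esr1 cKO neurons, and Nkx2-1, the gene whose promoter drives the Cre, in 32.3% and 33.8%. For tamoxifen against oil within genotype the differences were 2100 CPM for Tac2 (exact permutation p = 0.334), 6.38 for Kiss1 (p = 0.773), 71.3 for Pdyn (p = 0.717), 72.2 for Tacr3 (p = 0.368) and 71.7 for Esr1 (p = 0.480). Nov was found in 1 of 31 WT neurons (3.23%) and 62 of 71 Esr1 cKO neurons (87.3%). It stood at 0 in 7 of 8 WT libraries, at 36.5 CPM in library 3, and at 793 to 2233 CPM in the Esr1 cKO libraries, values given without a test. The cluster was picked because Tac2 led it, and other genes that differed between genotypes entered its clustering, among them Tbx3, at 219 CPM in WT and 447 CPM in Esr1 cKO neurons pooled. It held 0.169% to 1.38% of the neurons of a WT library and 0.412% to 3.66% of those of an Esr1 cKO library, shares that for this reason were not tested.

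**Figure D5:**
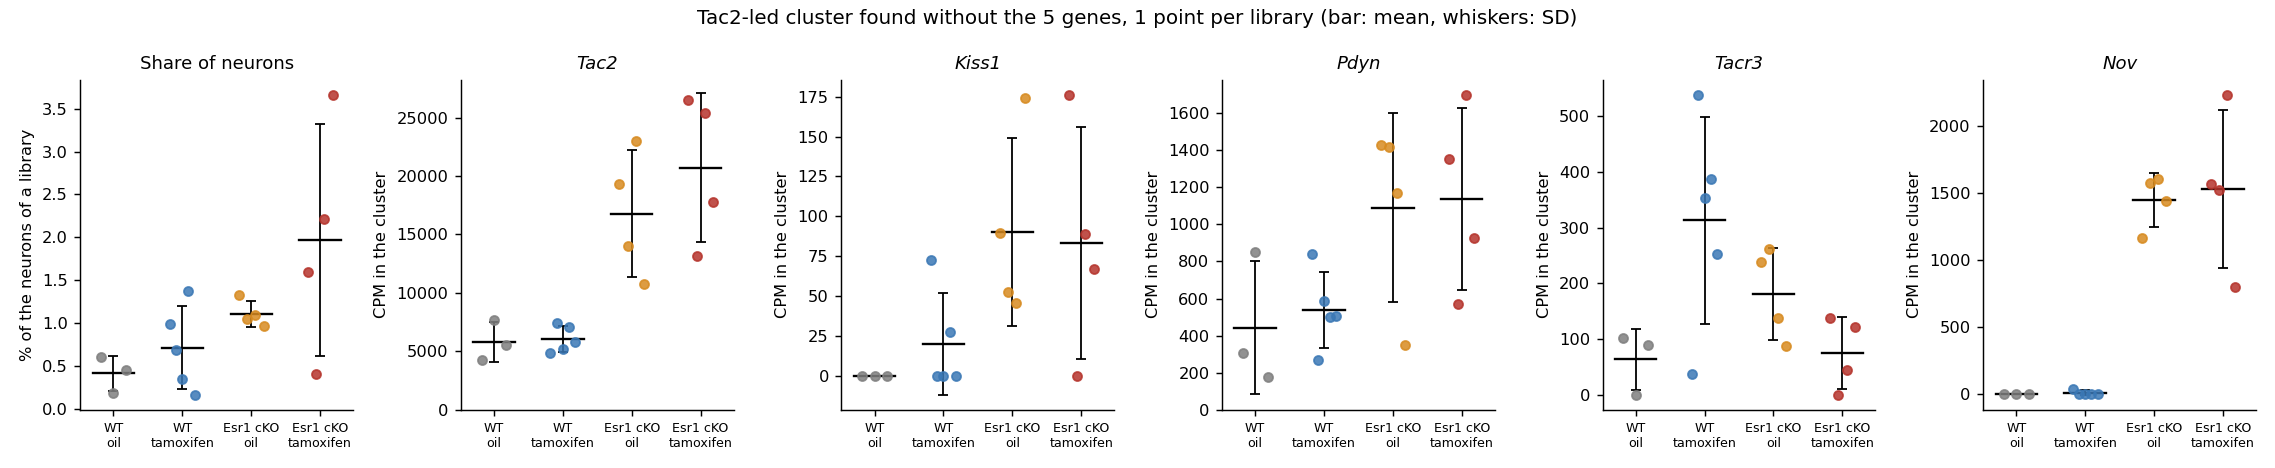
The Tac2-led cluster of the clustering without the 5 genes, by library and group: its share of neurons in percent and the level of each gene in CPM. All Esr1 cKO libraries lie above all WT libraries for Tac2 and Nov, and the genotypes overlap for Pdyn, Kiss1 and Tacr3. The share of all genes that separate so was not computed.

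A selection that uses no cluster gave the same direction for Pdyn and Kiss1, but it rested largely on the same transcripts. Neurons with at least 2 Tac2 UMIs numbered 308, with 26, 108, 77 and 97 in the WT oil, WT tamoxifen, Esr1 cKO oil and Esr1 cKO tamoxifen groups. Of the 106 neurons of the Tac2-led cluster, 103 were in this selection and 99 in the cluster tested above. The Tac2-led cluster held 489 Pdyn and 35 Kiss1 UMIs, and the selection held 501 and 37. The shared direction is therefore no independent result. Pdyn in them stood at 177, 42.7 and 179 CPM in WT oil and 449, 90.6, 228, 295 and 13.1 CPM in WT tamoxifen libraries. Esr1 cKO oil libraries gave 666, 841, 448 and 234 CPM and Esr1 cKO tamoxifen libraries 1032, 225, 660 and 792 CPM. The genotypes overlapped, with WT library 3 above 3 of the Esr1 cKO libraries. The difference within treatment was 438 CPM (exact permutation test over 4410 splits, two-sided, p = 0.00272, adjusted p = 0.0218 over the 8 tests of this selection). Kiss1 stood at 0 in 6 of 8 WT libraries, at 35.9 and 16.4 CPM in libraries 3 and 13, at 60.6, 31.2, 16.9 and 156 CPM in Esr1 cKO oil and at 135, 0, 34.5 and 55.8 CPM in Esr1 cKO tamoxifen libraries, a difference of 56.0 CPM (exact permutation p = 0.00794, adjusted 0.0317).

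Both calls in this selection also moved with single libraries. The adjusted permutation p of Pdyn was 0.0522 to 0.0677, at 379 to 450 CPM, without library 1, 2, 5, 8, 9, 10, 15 or 16. That of Kiss1 was 0.0620 to 0.152, at 42.9 to 56.7 CPM, without library 1, 2, 5, 8, 9, 10, 13, 15 or 16. Tacr3 (−0.92 CPM, exact permutation p = 0.980) and Esr1 (−113 CPM, p = 0.0780, adjusted 0.208) did not pass, nor did Pdyn (106 CPM, p = 0.373), Kiss1 (0.246 CPM, p = 0.996), Tacr3 (−8.95 CPM, p = 0.807) or Esr1 (−22.1 CPM, p = 0.723) for tamoxifen against oil. The selection mixed kinds of neuron in unequal parts. The Tac2-led cluster made up 30.8%, 23.1%, 33.8% and 45.4% of it in the 4 groups and the Gm5741-led cluster 0%, 34.3%, 0% and 30.9%. Without the Gm5741-led neurons the differences were 476 CPM for Pdyn (adjusted permutation p = 0.0200) and 58.7 CPM for Kiss1 (0.0236). Nov gave a difference of 795 CPM, without a test.

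Outside neurons, Nov, Pdyn and Tacr3 were tested where they passed the filter on low counts. That gave 35 tests in 7 pairs of gene and cell type, in which 0% of all genes were called. None of the 35 passed, none had an unadjusted p under 0.05, and the smallest adjusted p was 0.970 (edgeR). Nov in fibroblasts stood at 1076 ± 493 CPM in WT oil (n = 3), 787 ± 567 in WT tamoxifen (n = 5), 956 ± 76.1 in Esr1 cKO oil (n = 4) and 852 ± 770 in Esr1 cKO tamoxifen (n = 4). The log2 fold change for Esr1 cKO against WT was −0.17 under oil (SE 0.62) and 0.11 under tamoxifen (SE 0.54), and in endothelial cells 0.18 (SE 0.77) and 0.09 (SE 0.53). The spread between mice was wide in fibroblasts, with library 2 at 24.3 and library 15 at 1862 CPM within 1 group. Pdyn in ependymal cells averaged 32.7, 42.3, 31.9 and 27.0 CPM in the 4 groups.

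No tested member of 3 lists of the wider pathway passed in neurons, in contrasts that called 0% to 0.00803% of all genes. Of 15 peptide and receptor genes, 11 were tested, as were all of 20 receptor, transcription factor and transmitter genes and all of 9 genes of peptide processing, and 0 of these passed in any contrast. For Esr1 cKO against WT under tamoxifen, 6 of the 20 regulators, 2 of the 11 peptides and receptors and 1 of the 9 processing genes had an unadjusted p under 0.05, as did 444 of all 12448 genes. Those of the last 2 lists were Penk and Pcsk1, with values above 0, and Oprk1, with a value below 0, named after their values were seen. Median log2 fold changes for Esr1 cKO against WT were 0.18 under oil and 0.01 under tamoxifen for peptides and receptors, −0.14 and −0.01 for regulators and 0.05 and 0.06 for processing, against 0.03 and −0.02 over all genes. Values under oil and then tamoxifen were 2.11 and 0.50 for Pomc, the precursor of melanocortins, 0.71 and 0.73 for Penk, that of enkephalins, −0.82 and 0.70 for Tac1, that of substance P, and 1.62 and 0.12 for Gnrh1, the gene of gonadotropin-releasing hormone. They were 0.89 and 0.54 for Prlr, whose libraries did not overlap under oil, as in 5.36% of all genes, and 0.22 and 0.32 for Nr3c1, the glucocorticoid receptor gene. Under oil the Pomc libraries overlapped, at 23.1 to 136 CPM in WT and 36.4 to 636 CPM in Esr1 cKO mice. So did those of Gnrh1, at 0.855 to 149 and 3.25 to 438 CPM. For the vesicular transporters of glutamate and GABA, Slc17a6 gave −0.60 and −0.25 and Slc32a1 −0.08 and −0.12. The granin genes Scg2 and Chgb gave 0.15 and 0.00, and 0.08 and 0.38. Pcsk1n and Scg5, which act on the convertases, gave −0.56 and 0.06, and −0.07 and 0.12. The other tested member of the CCN family, Cyr61, gave −0.25 and −0.36. Pcsk1 (1.10 and 0.98) and Tbx3 (0.47 and 1.20) are named after their values were seen, as leading genes of the Tac2-led cluster. Of all other markers summed in neurons, those of oligodendrocytes differed most between treated groups, at 963 to 1474 CPM in WT tamoxifen and 727 to 963 CPM in Esr1 cKO tamoxifen libraries, and their part in the results was not tested.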

How the data were processed

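The authors counted UMIs per gene and cell barcode in 16 Drop-seq libraries, 1 per mouse, and deposited these counts unnormalized. The submitters' processing notes name STAR 2.6, Seurat and the build mm10. The annotation and the counting program are not given in the sources used here.

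Barcodes were kept as cells above 200 and below 4000 genes, if mitochondrial UMIs stayed under 15%. For clustering in Seurat 5.3.0 under R 4.3.3, the 4 groups were aligned by anchors (30 dimensions, 2000 variable genes), and clusters at a resolution of 0.05 on 20 principal components were named from marker lists. Neurons were clustered again at a resolution of 0.7, with 500 variable genes found in each of the 4 groups and joined for the alignment. Scrublet in scanpy 1.11.5 called 0.855% of the cells doublets, which were removed only in an alternative.

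Counts were summed per library and type (at least 10 cells) and fitted over 4 groups with edgeR 4.0.16 (quasi-likelihood, TMM, filterByExpr), adjusted by Benjamini-Hochberg over all genes at a threshold of 0.05. Values are CPM with the SD over libraries. Whether mice were independent beyond being separate animals is not given, so p-values measure the spread between these libraries. Levels in neurons with at least 2 Tac2 UMIs, in libraries with at least 3 such neurons, and in the Tac2-led cluster were compared with exact permutation tests over libraries (scipy 1.17.1), within the other factor. All tests were two-sided. Both tests were checked on simulated data. For the permutation test these were normal values of equal spread, so the check does not cover the few neurons, zeros and unequal spreads found here.

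The genes, the lists and the tests were chosen with earlier results of these data known. Genes named from the lists are, per list, the 4 with the most UMIs in neurons. Promoter windows were matched by symbol for 4 of the 5 genes, and Nov (Ccn3) had none. Alternatives were DESeq2 1.42.0, no filter on low counts, each library left out, libraries 10 and 11 both left out, successive fours of library numbers as a block, more than 500 genes per cell, doublets removed, other Tac2 limits and thinned counts. Those that left out the Gm5741-led or the Tac2-led neurons, and the tests in the cluster formed without the 5 genes, were added after seeing the data.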

Additional observations from a re-analysis of the deposited data

Results flagged for a closer look

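In 3 groups 1 library lay far from the others by Dixon's criterion, which flags about 1 in 20 groups by chance. Pdyn in neurons of Esr1 cKO oil library 14 stood at 41.4 CPM against 76.6 to 82.8 in the other Esr1 cKO oil libraries. Nov in neurons of Esr1 cKO oil library 4 stood at 56.2 CPM against 43.0 to 45.1. Tac2 in the neurons of WT tamoxifen library 13 with at least 2 Tac2 UMIs stood at 5045 CPM against 2912 to 3521.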

How the results depend on the processing

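Values are log2 fold changes in neurons unless in CPM, and no cause of a shift was tested. The labels give no replicate numbers that the groups share and not which mice shared a processing day. With successive fours of library numbers, of which the last holds no WT oil library, as a replicate block, the Tac2 interaction was 0.0287 and Pdyn for tamoxifen in WT mice 0.0213, and the block changed no call. With no filter on low counts, Tac2 for Esr1 cKO against WT under tamoxifen was 2.35 and passed. Without the Gm5741-led neurons, the Tac2 interaction was 0.51 and Pdyn for tamoxifen in WT mice 0.0476. Without the Tac2-led neurons, Esr1 cKO against WT gave −0.10 for Tac2 under tamoxifen, −0.38 and −0.0168 for Pdyn under oil and tamoxifen, 0.00113 for Tacr3 under tamoxifen, and 0.77 and 1.13 for Nov, with −0.19 for Nov under tamoxifen in Esr1 cKO mice and 0.36 for its interaction. The Tac2 value without the Tac2-led neurons kept the Gm5741-led ones, with WT library 16 at 414 CPM. Without libraries 10 and 11, Pdyn for tamoxifen in WT mice was 0.44. Tacr3 was then −0.16 and 0.15 for tamoxifen in WT and Esr1 cKO mice, 0.31 for the interaction, and −0.0413 and 0.26 for Esr1 cKO against WT under oil and tamoxifen. Genes past the threshold for Esr1 cKO against WT under tamoxifen numbered 1, against 3 by DESeq2, 2 with no filter, 2 without libraries 10 and 11, 0 without the Tac2-led neurons and 1 to 2 with a library left out. Under oil the number was 0, against 1 by DESeq2 and 1 with no filter, and for tamoxifen in WT mice 0, against 1 by DESeq2. The gene called under tamoxifen in the main fit was Nov, as was that under oil with no filter. Since Nov was picked for this difference, these calls are no test of it.

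In neurons with at least 2 Tac2 UMIs, the Esr1 cKO minus WT difference became 824 CPM for Pdyn, 83.4 for Kiss1 and 1473 for Nov in the Tac2-led cluster of the clustering with the 5 genes, and 1483 for Nov in that without them. The Pdyn and Kiss1 calls were lost in the first of these (adjusted permutation p = 0.0800 and 0.187) and without libraries 10 and 11 (453 and 59.6 CPM, adjusted permutation p = 0.0762 and 0.133). Tacr3 turned to 11.2 CPM without these libraries and to 9.85 CPM with at least 3 Tac2 UMIs. For tamoxifen minus oil, Tacr3 turned to 3.17 CPM without these libraries and to 125 and 72.2 CPM in both Tac2-led clusters, Esr1 to 71.7 CPM in the second, and Kiss1 to −0.0116 CPM with more than 500 genes per cell.

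With each library left out in turn, the Tac2 interaction ran from −0.39 to 0.35, Pdyn from −0.25 to 0.44 for tamoxifen in WT mice and from −0.00673 to 0.69 for Esr1 cKO against WT under oil. Tacr3 ran from −0.16 to 0.64 for tamoxifen in WT and −0.39 to 0.15 in Esr1 cKO mice, −0.76 to 0.0400 for the interaction, and −0.0629 to 0.73 and −0.29 to 0.25 for Esr1 cKO against WT under oil and tamoxifen. In neurons with at least 2 Tac2 UMIs, Esr1 cKO minus WT ran from 379 to 514 CPM for Pdyn, 41.0 to 65.4 for Kiss1 and −18.2 to 14.4 for Tacr3. Tamoxifen minus oil ran from −12.8 to 15.2 CPM for Kiss1, −26.3 to 3.25 for Tacr3, −46.6 to 3.77 for Esr1 and −38.5 to 65.4 for Nov. Tac2 for Esr1 cKO against WT kept its direction, at 2.16 to 2.72 under oil and 2.03 to 2.77 under tamoxifen. Kiss1, at 44 neuronal UMIs, and single neurons per library in the Tac2-led cluster set the limit of depth. The tests in other cell types called 0 under each alternative run.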

Other observations

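In the Tac2-led cluster formed without the 5 genes, Nhlh2, a transcription factor gene of hypothalamic neurons, stood at 603 CPM in the 31 WT neurons and 256 CPM in the 71 Esr1 cKO neurons pooled, against the direction of Tac2 and Tbx3. Slc17a6, the marker of glutamatergic neurons, was found in 58.1% and 62.0% of them. Both genes were named after their values were seen, and no test was made.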
